A study of Mus musculus with 2 samples.

Results

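Marginal zone B cells and the Notch program that shapes them were followed through 7 genes, Notch2, Hes1, Dtx1, Cr2, Cd1d1, S1pr3 and Il9r. They were taken from 32285 genes counted by single cell RNA sequencing of cells given as mouse spleen in the study's methods. The 7 were selected on these same counts, in which a Cr2-led group of B cells was larger in the PEP-WT library than in the PEP-619WW library, so their difference between genotypes is given below as a description with no test. Their unique molecular identifiers (UMIs, 1 per captured RNA molecule) were summed over B cell barcodes, which carried at least 1 UMI of both Cd79a and Ms4a1 and fewer than 5 UMIs of Mzb1. Of the 14821 PEP-WT barcodes 5515 entered this gate, as did 2313 of the 8576 from PEP-619WW. It was then divided by Ighd, the constant region of IgD. In PEP-WT 3241 barcodes held at least 2 Ighd UMIs and 2274 held fewer, and in PEP-619WW the numbers were 1409 and 904.

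PEP-WT mice were C57BL/6 mice with the wild type allele of Ptpn22, which encodes the phosphatase PEP, and PEP-619WW mice were homozygous for the 619 WW mutant allele, a missense change made in the germline by CRISPR/Cas9 and so present in every cell. By the study's methods, mice of both genotypes, 6 to 12 weeks old, had received 1000000 plaque-forming units of lymphocytic choriomeningitis virus clone 13 (LCMV-cl13). The methods add that at 8 days post infection spleen cells pooled from 4 to 5 animals of each genotype were sorted for live CD45+ cells. No uninfected mice were sequenced. Each genotype was 1 library in the run used here, so mice cannot be told apart from each other and no spread between replicates exists. Intervals are 95% and cover counting error only, exact Poisson for levels, exact binomial for shares and exact conditional for ratios.

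The labels give the tissue as liver, the cell line as a human T cell line and the cell type as tumor infiltrating cells, whereas the study's methods give mouse spleen. Which of these describes run 1 and which run 2 is not stated. The hepatocyte genes Alb, Apoa1 and Ttr had 0 UMIs in B barcodes of both libraries, and 1 UMI over all barcodes of each. Immune cells would hold little of them in either organ, so these counts do not tell the tissue. Ptpn22 itself was counted in B barcodes at 77.9 UMIs per 1000000 (CPM) in PEP-WT and 127 CPM in PEP-619WW. The Ptpn22 counts do not read the changed bases within it. Each genotype was deposited in 2 runs whose relation is not stated. The values are from run 1, since run 2 of PEP-WT held 2 B barcodes, and 494 of its barcodes had UMIs of at least 2 of the 3 melanocyte genes Pmel, Dct and Tyrp1, against 71 in run 2 of PEP-619WW and 0 in both libraries of run 1. The barcode totals of run 2, and not those of run 1, match the cell numbers in the study's methods. That the design in the methods also holds for run 1 is therefore an inference.

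Marginal zone B cells sit at the border of the splenic white pulp, where they meet blood-borne antigen. Their formation depends on the receptor Notch2, which is cut when it binds a Delta-like ligand on stromal cells and whose inner part joins the DNA-binding protein Rbpj to switch on targets such as Hes1 and Dtx1. These cells carry high complement receptor CD21, encoded by Cr2, and high CD1d, and little of the IgE receptor CD23, encoded by Fcer2a, which marks follicular B cells.

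In the mouse genome GRCm38, Cr2 lies on the minus strand at chr1:195136811-195176716, Dtx1 on the minus strand at chr5:120680202-120711927, Il9r on the minus strand at chr11:32187541-32200279 and Cd1d1 on the minus strand at chr3:86995834-86999441. Hes1 lies on the plus strand at chr16:30064384-30067796, Notch2 on the plus strand at chr3:98013527-98150361 and S1pr3 on the plus strand at chr13:51408639-51422797. Notch2 overlaps 2 short gene models on its own strand, Gm42819 and Gm42820, and Cd1d1 has a near-identical neighbour, Cd1d2, so the assignment of their reads carries some uncertainty. S1pr3 overlaps the noncoding gene Gm32834 on the other strand.

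Because Rbpj carries Notch signals to DNA, the 250 bases before the start site were searched on both strands for its core letters TGGGAA and the longer GTGGGAA, which contains the core. RefSeq windows were matched for 5 of the 7 genes, all but Hes1 and Cd1d1. The core stood in 1 of the 5, that of Cr2, 220 bases before the start, and the longer form matched at the same place. Over all 32851 windows of this length, 21.6% held the core and 5.42% the longer form. The windows of Cr2, chr1:195176720-195176969 on the minus strand, Il9r, chr11:32200280-32200529 on the minus strand, and S1pr3, chr13:51408368-51408617 on the plus strand, are shown for the surface genes whose levels differed most between the libraries. They are written 5′ to 3′ from RefSeq on GRCm38.p6, and capitals mark the core.
Cr2: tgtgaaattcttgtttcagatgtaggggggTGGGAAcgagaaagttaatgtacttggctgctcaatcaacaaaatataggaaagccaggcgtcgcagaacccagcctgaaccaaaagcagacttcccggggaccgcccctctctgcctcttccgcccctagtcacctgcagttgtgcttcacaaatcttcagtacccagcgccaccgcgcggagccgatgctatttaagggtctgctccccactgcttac
Il9r: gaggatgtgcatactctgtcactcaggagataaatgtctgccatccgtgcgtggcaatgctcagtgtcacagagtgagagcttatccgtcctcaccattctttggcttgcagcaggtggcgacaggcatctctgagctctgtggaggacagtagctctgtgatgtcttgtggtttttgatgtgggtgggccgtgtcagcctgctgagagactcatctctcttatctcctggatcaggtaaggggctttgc
S1pr3: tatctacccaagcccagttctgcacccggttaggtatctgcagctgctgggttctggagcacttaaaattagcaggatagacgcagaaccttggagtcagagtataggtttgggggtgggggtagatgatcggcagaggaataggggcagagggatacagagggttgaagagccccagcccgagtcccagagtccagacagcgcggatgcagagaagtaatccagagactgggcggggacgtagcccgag
The lower case windows of Il9r and S1pr3 hold no core on either strand, as do those of Dtx1 and Notch2. No binding was measured here.

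The PEP-619WW library held less RNA of 5 of the 7 genes, per total UMIs, in its B barcodes, namely the surface genes Cr2, Il9r and S1pr3 and the Notch targets Hes1 and Dtx1. Cd1d1 and Notch2 did not pass the measure used, Notch2 being the one with more RNA in PEP-619WW. A gene counted as lower or higher when its CPM differed at least 1.5-fold, with at least 30 UMIs in both libraries together. By this measure 4.12% of 11521 genes were lower and 7.09% higher, and the median log2 ratio was 0.07 over all genes and -1.39 over the 7. Because UMIs are summed, fewer cells of a type and less RNA per cell cannot be told apart in these levels.

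Notch2, the receptor at the head of the program, stood at 76.4 CPM in PEP-WT from 1376 UMIs and at 103 CPM in PEP-619WW from 901 UMIs. The ratio of 1.35-fold toward PEP-619WW, a log2 ratio of 0.43 (95% interval 0.31 to 0.56), did not reach 1.5-fold, and 86.4% of genes had a lower ratio.

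Hes1, a transcriptional repressor and direct Notch target, stood at 37.8 CPM in PEP-WT and 14.4 CPM in PEP-619WW from 681 and 126 UMIs, 2.62-fold lower. Dtx1, an E3 ubiquitin ligase induced by Notch2 in these cells, stood at 73.6 CPM and 48.3 CPM from 1324 and 422 UMIs. Its 1.52-fold difference was the member value just past the threshold, and the 1.35-fold of Notch2 and the 1.18-fold of Cd1d1 were those just short of it.

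Cr2, the complement receptor that lowers the threshold for antigen, was the most abundant of the 7 in PEP-WT by UMIs, a scale that does not correct for how well each 3′ end is captured. It stood at 193 CPM from 3467 UMIs in PEP-WT and 63.1 CPM from 551 UMIs in PEP-619WW, a log2 ratio of -1.61 (95% interval -1.74 to -1.48). This is 3.05-fold lower, and 0.469% of genes had a lower ratio.

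S1pr3, a sphingosine 1-phosphate receptor that helps place these cells, was rare in both libraries. It had 109 UMIs in PEP-WT, 6.06 CPM, and 9 UMIs in PEP-619WW, 1.03 CPM. The ratio was 5.88-fold (95% interval 2.98 to 13.2), so its size is loosely known.

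Il9r, the specific chain of the interleukin 9 receptor, stood at 25.6 CPM from 461 UMIs and 9.16 CPM from 80 UMIs, 2.80-fold lower in PEP-619WW. Cd1d1, which presents lipids to NKT cells, stood at 37.9 CPM from 682 UMIs and 32.2 CPM from 281 UMIs, a log2 ratio of -0.24 (95% interval -0.44 to -0.03). The log2 ratios of the 7 genes therefore ran from -2.56 to 0.43.

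**Figure D1:**
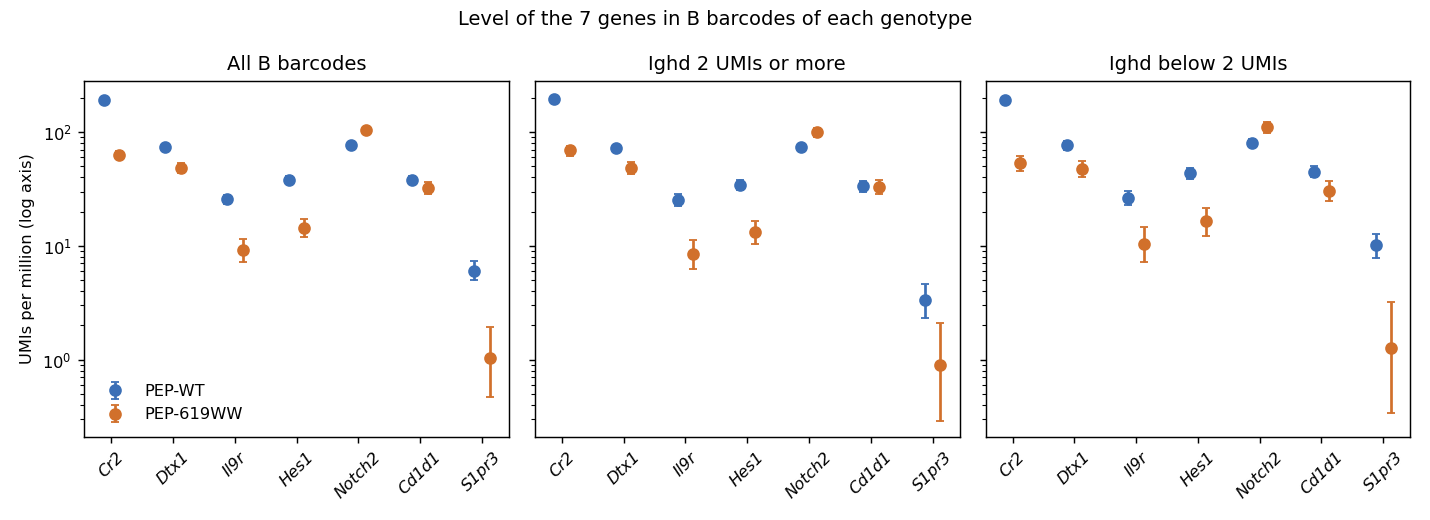
Level of each of the 7 genes in UMIs per 1000000, on a log axis, for PEP-WT and PEP-619WW (1 pooled library each), in all B barcodes and in those with 2 or more and fewer than 2 Ighd UMIs. Bars about the points are 95% Poisson intervals for counting error. In all B barcodes Cr2 lies at 193 and 63.1, and Notch2 is the gene whose PEP-619WW point lies above that of PEP-WT, at 103 against 76.4, short of 1.5-fold.

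The share of barcodes in which a gene was seen was then compared at equal depth. PEP-619WW B barcodes were deeper, with a median of 3048 UMIs against 2460, so each barcode was thinned to 1000 UMIs, and shallower ones, 92 from PEP-WT and 64 from PEP-619WW, were left out. Cr2 was then seen in 16.3% of barcodes (95% interval 15.3 to 17.3) in PEP-WT and 5.42% (95% interval 4.52 to 6.44) in PEP-619WW, against 32.6% and 16.2% before thinning. In T cell barcodes, which should lack it, Cr2 was seen in 0.815% and 0.320% without thinning, at median depths of 4128 and 6458.5 UMIs. By UMIs summed after thinning 3 of the 7 genes were lower, as Dtx1 came to a log2 ratio of -0.50 and S1pr3 had too few UMIs left. After thinning Hes1 was seen in 3.52% and 1.47%, Il9r in 2.54% and 0.622%, and Notch2 in 7.69% and 10.1%.

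Barcodes with much Cr2 were rarer still in PEP-619WW. At least 2 Cr2 UMIs were found in 781 barcodes, 14.2%, in PEP-WT and in 93, 4.02%, in PEP-619WW. At least 5 were found in 108, 1.96%, and 13, 0.562%. The highest count before thinning was 15 UMIs in PEP-WT and 9 in PEP-619WW.

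The Notch pathway was also read from lists of its genes, which include the members Hes1, Dtx1 and Notch2, counting how many passed the same 1.5-fold measure. Among 6 Notch targets with enough UMIs, 3 were lower in PEP-619WW and 1 was higher, and of the 4 that are not members Hes5 was lower and Nrarp, a feedback inhibitor, higher. Hes5 had 70 UMIs in PEP-WT and 17 in PEP-619WW, or 3.89 CPM and 1.95 CPM, and Nrarp had 24 and 18, a log2 ratio of 0.63. The other 2, Myc and Ccnd1, had log2 ratios of -0.58 and -0.40 and did not pass. The median log2 ratio of the 6 targets, members included, was -0.59. Of 2 receptors measured, Notch1 and Notch2, 0 passed in either direction, and of the ligands Dll1 alone had enough UMIs and did not pass.

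The machinery around the receptor was read against the 7.09% of all genes that were higher and the 4.12% that were lower in PEP-619WW. Of 14 glycosylation and cleavage genes, 1 was higher and 0 lower, Lfng, a fucose-extending enzyme that tunes ligand binding, at 18.2 CPM in PEP-WT and 31.0 CPM in PEP-619WW. Of 13 genes of the nuclear complex and its corepressors, 1 was higher and 0 lower, the coactivator Maml3, at 16.6 CPM and 27.2 CPM. Of 10 inhibitors and turnover genes, 3 were higher and 0 lower, Neurl3, Numbl and Mib1, with Neurl3 at 132 CPM and 216 CPM. The shares of the first 2 lists were near that of all genes. Since these lists were drawn up with earlier results of these data known, their counts are descriptions.

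A list of 12 marginal zone genes outside the 7 was read against the same background of 4.12% lower. Of them 3 were lower in PEP-619WW, Nebl with a log2 ratio of -0.95, Asb2 with -0.68 and Ahr with -0.61, and 0 were higher, with a median of -0.39. Among those that did not pass, Cd9 had -0.22, Plac8 -0.08 and Myof -0.005. This list too was drawn up with earlier results of these data known. Of 10 follicular genes 1 was lower, Fcer2a, at 78.9 CPM in PEP-WT and 44.6 CPM in PEP-619WW. The homing gene Ccr7 had a log2 ratio of 0.44, short of the threshold. Ighd was at 750 CPM and 741 CPM.

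Partners of the surface genes showed no shared shift past the threshold. Of 9 complement receptor and coreceptor genes, Cr2 was lower and Cd46 higher. Of 5 genes of CD1d lipid presentation 0 passed, with the CD1d partner chain B2m at a log2 ratio of 0.18. Of 9 sphingosine phosphate genes S1pr3 and S1pr5 were lower, the latter from 29 and 5 UMIs. Of 8 interleukin 9 receptor and signaling genes only Il9r passed, and of 10 integrin and motility genes 0 passed.

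Markers of other cells differed between the B barcodes of the libraries as well. The 4 neutrophil genes summed to 1550 CPM in PEP-WT and 3601 CPM in PEP-619WW, 4 of 4 higher, and 3 of 3 erythroid genes were lower, at 3711 CPM and 689 CPM. Of 4 monocyte or macrophage genes 1 was higher, C1qa, with sums of 624 CPM and 911 CPM, and of 5 T cell genes 0 passed, with sums of 416 CPM and 359 CPM. Of 5 plasma cell genes 2 were higher, Jchain and Sdc1, and of 2 NK cell genes Klre1 was lower, from 57 and 5 UMIs. Among other B cell genes, 1 of 6 germinal center genes was higher, Rgs13, 2 of 7 of the B1 or age-associated list, Bhlhe41 and Itgam, and 1 of 4 transitional genes, Cd93. Follicular dendritic and stromal genes had 9 and 4 UMIs. B barcodes with UMIs of T cell, myeloid or neutrophil genes, or at least 10 of Hba-a1, were 18.4% in PEP-WT and 37.2% in PEP-619WW. Without them 4 of the 7 genes were lower, since Dtx1 came to a log2 ratio of -0.54, while Cr2 stood at -1.60 and Hes1 at -1.83.

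The surface IgD of a B cell separates many follicular cells from marginal zone cells, which carry more IgM than IgD. The genotype difference was present on both sides of the Ighd division. With 2 or more Ighd UMIs, 4 of 7 genes were lower in PEP-619WW, against 4.42% of all genes, and with fewer than 2, 5 of 7 were lower, against 4.89%. The latter count was 3 with Mzb1 below 2 UMIs and 3 after thinning. Dtx1 made the difference in the count, at 1.47-fold in the first class. None of the 7 was higher in either class, against 8.17% and 7.6% of all genes.

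Cr2 stood at 193 CPM in PEP-WT and 68.8 CPM in PEP-619WW with 2 or more Ighd UMIs, and at 192 CPM and 53.0 CPM with fewer. Hes1 stood at 34.1 CPM and 13.3 CPM, then at 43.3 CPM and 16.4 CPM. S1pr3 had 36 and 5 UMIs, then 73 and 4. Cd1d1 was level with more Ighd, at 33.3 CPM and 33.1 CPM. With less Ighd it stood at 44.7 CPM and 30.6 CPM, a 1.46-fold difference short of the threshold.

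Within a genotype, S1pr3 was the member that went most with low Ighd. In PEP-WT it was 3.01-fold higher (95% interval 1.99 to 4.62) with fewer than 2 Ighd UMIs, at 10.1 CPM against 3.35 CPM. Cd1d1 was 1.34-fold higher and Hes1 1.27-fold higher, while Cr2 was at 0.991 of its level with more Ighd. In PEP-619WW Cr2 was at 0.771 of that level (95% interval 0.639 to 0.926), and the intervals of the other 6 genes included 1. Past 1.5-fold, 1 of 7 genes was higher with less Ighd in PEP-WT and 0 were lower, against 5.73% and 1.63% of all genes. In PEP-619WW 0 of the 6 with enough UMIs were higher and 0 lower, against 6.27% and 3.53%. In both genotypes at once 0 were higher, against 1.81%, with no test possible. Fcer2a lay on the other side, at 0.568 and 0.566 of its level with more Ighd. In PEP-WT 4 of 12 marginal zone and 3 of 5 germinal center genes were higher with less Ighd. So were 4 of 7 B1 or age-associated, 3 of 4 monocyte or macrophage and 2 of 5 T cell genes. In PEP-619WW the counts, in this order, were 3 of 12, 1 of 4 with 1 lower, 4 of 7, 1 of 4 and 0 of 5. Ighm was lower with less Ighd, at 2436 CPM against 2624 CPM in PEP-WT and 3128 CPM against 3367 CPM in PEP-619WW.

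Co-detection with Cr2 was then read within each genotype, over 1799 barcodes with Cr2 and 3716 without in PEP-WT, and 374 and 1939 in PEP-619WW. As the Cr2-led group chose the 7, these values are also a description. Dtx1, Il9r and Cd1d1 were at least 1.5-fold higher with Cr2 in both genotypes, 3 of the other 6 genes, against 0.415% of 9889 genes. In PEP-WT alone 5 of 6 passed, against 2.47% of genes, and in PEP-619WW 3 of the 5 with enough UMIs, against 3.57%. None was lower with Cr2, against 5.59% of genes in PEP-WT and 9.49% in PEP-619WW. Barcodes with Cr2 were deeper, with a median of 3013 UMIs against 2275.5 in PEP-WT. Shares at equal depth are therefore given below for Dtx1, Il9r and Cd1d1.

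Dtx1 was at 123 CPM with Cr2 and 43.5 CPM without it in PEP-WT, 2.83-fold higher (95% interval 2.53 to 3.17), and at 75.7 CPM and 41.8 CPM in PEP-619WW, 1.81-fold higher (95% interval 1.46 to 2.24). Il9r was 1.92-fold higher (95% interval 1.59 to 2.32) in PEP-WT and 2.95-fold higher (95% interval 1.83 to 4.71) in PEP-619WW. Cd1d1 was 2.29-fold higher (95% interval 1.96 to 2.67) in PEP-WT. In PEP-619WW it stood at 44.1 CPM with Cr2 and 29.3 CPM without it (95% interval of the ratio 1.14 to 1.97), only just past the threshold. The PEP-619WW values of Cd1d1 and Il9r are the less firm ones, as the intervals without barcodes that carried UMIs of other cells included 1. For Cd1d1 in PEP-619WW the thinned shares also lay the other way, at 2.46% with Cr2, from 3 of 122 barcodes, and 2.96% without it. Here Cr2 too was read after thinning. The thinned shares of Il9r in PEP-619WW were 3.28%, from 4 barcodes, and 0.470%, and those of Dtx1 17.2% and 4.37%. In PEP-WT they were 12.5% and 5.79% for Dtx1, 3.63% and 2.33% for Il9r, and 5.67% and 3.04% for Cd1d1.

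Hes1 went with Cr2 in PEP-WT, at 65.7 CPM against 21.0 CPM, 3.13-fold higher (95% interval 2.67 to 3.69). In PEP-619WW it stood at 16.7 CPM and 13.9 CPM, 1.20-fold (95% interval 0.760 to 1.84). With 1 library each, the difference between these ratios was not tested between genotypes.

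S1pr3 had the largest ratio, 7.82-fold (95% interval 4.73 to 13.6) in PEP-WT, while in PEP-619WW 6 UMIs with Cr2 and 3 without were too few to count. Notch2 did not go with Cr2, at 1.03-fold (95% interval 0.918 to 1.14) and 0.853-fold (95% interval 0.712 to 1.02).

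Mzb1 is itself expressed by marginal zone B cells, and the limit on it bears on these counts. With Mzb1 below 2 UMIs, or with barcodes thinned to 1000 UMIs, 1 of the 6 genes was counted as higher with Cr2 in both genotypes, Dtx1 under the former. Il9r was still 1.54-fold higher with Cr2 in PEP-WT and 5.69-fold in PEP-619WW with Mzb1 below 2, but its 14 UMIs with Cr2 and 12 without in PEP-619WW were under the minimum of 30. With Mzb1 below 2, Dtx1 was 2.45-fold higher with Cr2 in PEP-WT and 1.67-fold in PEP-619WW, and Hes1 2.93-fold and 1.17-fold.

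The neutrophil, erythroid, monocyte or macrophage and T cell sums were lower in barcodes with Cr2. Rarer markers did not all go this way, as the NK cell sum was 7.05 CPM without Cr2 and 4.27 CPM with it in PEP-WT but 1.84 CPM and 4.77 CPM in PEP-619WW, from 13 and 8 UMIs, and the stromal sum was 0.357 CPM and 0.737 CPM in PEP-WT, from 4 and 5 UMIs. The neutrophil sum was 1825 CPM without Cr2 and 1096 CPM with it in PEP-WT, and 3962 CPM and 2082 CPM in PEP-619WW. The erythroid sum was 4298 CPM and 2741 CPM in PEP-WT, and 845 CPM and 31.6 CPM in PEP-619WW. The monocyte or macrophage sum was 721 CPM and 465 CPM, and 997 CPM and 549 CPM, and the T cell sum was 420 CPM and 411 CPM, and 382 CPM and 263 CPM. Without the barcodes that carried UMIs of other cells, Hes1 was 3.38-fold higher with Cr2 in PEP-WT and 1.31-fold in PEP-619WW. Cd1d1 in PEP-619WW came to 1.34-fold (95% interval 0.920 to 1.91) and Il9r to 1.84-fold (95% interval 0.951 to 3.43).

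**Figure D2:**
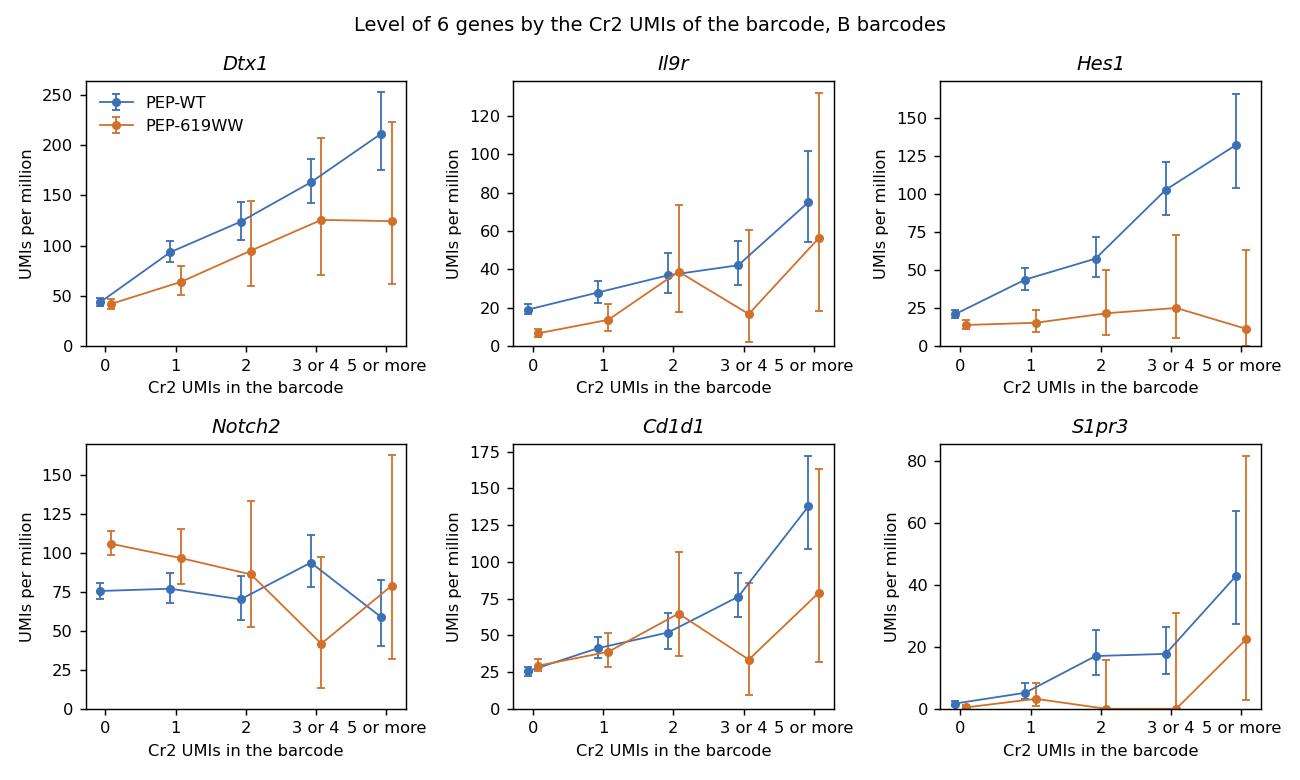
Level of the other 6 genes in UMIs per 1000000 by the number of Cr2 UMIs in the B barcode, for PEP-WT and PEP-619WW, with 95% Poisson intervals. In PEP-WT Dtx1 goes from 43.5 to 211 and Hes1 from 21.0 to 132 across the bins, while Notch2 stays between 59.0 and 94.0. The highest bins of PEP-619WW hold few barcodes.

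The Cr2 count itself was graded. In PEP-WT barcodes with 0, 1, 2, 3 to 4 and 5 or more Cr2 UMIs, Dtx1 stood at 43.5, 93.4, 124, 163 and 211 CPM. Hes1 stood at 21.0, 43.8, 57.6, 103 and 132 CPM, and Cd1d1 at 25.5, 41.2, 51.9, 76.2 and 138 CPM. S1pr3 stood at 1.69, 5.19, 17.1, 17.8 and 42.9 CPM. All 4 were highest at 5 or more Cr2 UMIs, where Ighd was lowest, at 485 CPM against 785 CPM without Cr2. In PEP-619WW Ighd stood at 689 CPM in that bin, from 61 UMIs, and 751 CPM without Cr2. The bins were not thinned, and their median depth in PEP-WT went from 2275.5 UMIs without Cr2 to 4573.5 UMIs at 5 or more.

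In PEP-619WW Dtx1 was also graded, at 41.8 CPM without Cr2, 63.8 CPM with 1 UMI of it and 124 CPM with 5 or more. Hes1 was at 13.9, 15.3, 21.6, 25.1 and 11.3 CPM, from 98, 19, 5, 3 and 1 UMIs. Notch2 had no upward grade in either library.

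The genotypes were then compared among barcodes of the same Cr2 class. Dtx1 had a log2 ratio of -0.06 (95% interval -0.27 to 0.15) without Cr2 and -0.70 (95% interval -0.98 to -0.43) with it. Hes1 had -0.59 without Cr2 and -1.98 with it, the latter 3.94-fold lower in PEP-619WW (95% interval 2.69 to 5.99). Il9r had -1.51 and -0.89, S1pr3 -2.00 and -1.89, Notch2 0.49 and 0.22, and Cd1d1 0.20 and -0.40. With 2 or more Cr2 UMIs, Hes1 had -2.11, S1pr3 -2.25 from 72 and 2 UMIs, Dtx1 -0.50 and Cd1d1 -0.37. Il9r came to -0.32 (95% interval -1.17 to 0.42) in that class, and Notch2 turned to -0.10 (95% interval -0.68 to 0.43). Fcer2a, not a member, had -0.94 without Cr2 and -0.37 with at least 1 Cr2 UMI. Barcodes of the same Cr2 class may therefore differ in kind between the libraries, which was not tested.

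The PEP-619WW barcodes were reweighted to the Cr2 counts of PEP-WT, by the share of UMIs in barcodes with 0, 1, 2 and 3 or more Cr2 UMIs. The log2 ratio of Dtx1 then went from -0.61 to -0.32 and that of Il9r from -1.48 to -0.93. Hes1 went from -1.39 to -1.30, S1pr3 from -2.56 to -1.67, Cd1d1 from -0.24 to -0.06 and Notch2 from 0.43 to 0.35. Hes1, Il9r and S1pr3 kept their side of the threshold and Dtx1 did not. The PEP-619WW barcodes with 3 or more Cr2 UMIs behind these values held 4 Hes1, 7 Il9r and 2 S1pr3 UMIs, so they are loosely known. The Cr2 counts were not thinned, and PEP-619WW barcodes were deeper. Medians in PEP-WT and PEP-619WW were 2275.5 and 2961 UMIs without Cr2, and 3013 and 3620.5 UMIs with it. The reweighted values therefore do not tell fewer cells from less RNA per cell.

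**Figure D3:**
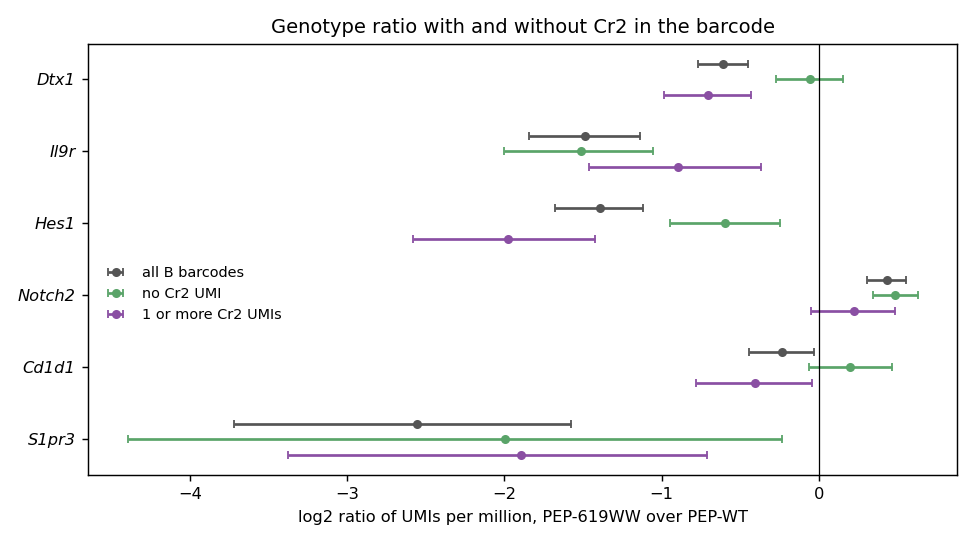
log2 ratio of UMIs per 1000000, PEP-619WW over PEP-WT, for 6 genes in all B barcodes, in those without Cr2 and in those with at least 1 Cr2 UMI, with 95% intervals for counting error. Hes1 lies at -0.59 without Cr2 and -1.98 with it, and Dtx1 at -0.06 and -0.70.

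The follicular gene Fcer2a divided the Cr2 barcodes further. Among PEP-WT barcodes with 2 or more Cr2 UMIs, 608 had no Fcer2a UMI and 173 had at least 1. S1pr3 stood at 26.6 CPM (95% interval 20.7 to 33.6) without Fcer2a and 4.17 CPM (95% interval 0.859 to 12.2) with it. Dtx1 stood at 171 CPM and 95.8 CPM, Cd1d1 at 82.8 CPM and 52.8 CPM, and Il9r at 48.9 CPM and 33.3 CPM. Hes1 was close in both, at 88.5 CPM and 88.9 CPM. Only 69 and 24 barcodes fell in these classes in PEP-619WW.

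**Figure D4:**
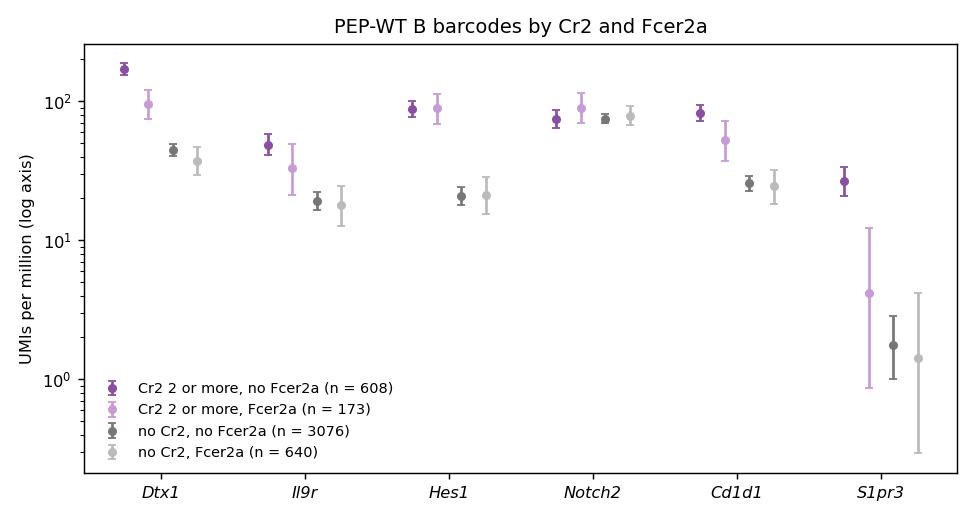
Level of 6 genes in UMIs per 1000000, on a log axis, in PEP-WT B barcodes with 2 or more Cr2 UMIs or with none, each with and without Fcer2a, with 95% Poisson intervals. With 2 or more Cr2 UMIs, S1pr3 lies at 26.6 without Fcer2a and 4.17 with it, and Hes1 at 88.5 and 88.9.

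Single barcodes held few of the genes at once. After thinning to 1000 UMIs, 2 or more of the other 6 genes were seen in 1.98% of PEP-WT barcodes without Cr2, in 6.03% with 1 Cr2 UMI and in 5.33% with 2 or more. In PEP-619WW these shares were 1.46%, 4.59% and 0 of 13 barcodes, a number too small to bound the share below 24.7%. At this depth most barcodes of every class showed none of the 6.

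The genes whose pattern was most like Cr2 were ranked among 6897 genes by the lower of the genotypes' ratios between barcodes with 2 or more Cr2 UMIs and those without. Dtx1 ranked 1st, with log2 ratios of 1.83 in PEP-WT and 1.39 in PEP-619WW. Pik3r4, a regulator of the lipid kinase Vps34, had 1.33 and 1.36, Ffar2, a short-chain fatty acid receptor, 1.25 and 1.53, and Fcrl5, a marginal zone Fc receptor-like gene, 1.70 and 1.11. A930005H10Rik, Pxdc1 and Dph5 followed, Cd1d1 ranked 8 with 1.58 and 1.01, and Rasgef1b and Ift140 closed the first 10. Hes1 ranked 35 and Notch2 5422, and Il9r and S1pr3, with under 100 UMIs in at least 1 library, were not ranked. The lowest were Cxcl2, Camp, Ngp, Gm5483 and Car2, genes of myeloid or erythroid cells.

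The lists were read by Cr2 as well, against 2.47% of all genes higher in PEP-WT and 3.57% in PEP-619WW. They were drawn up with earlier results of these data known, so these counts are descriptions and not independent of the Cr2-led group. The marginal zone list holds Pik3r4 and Fcrl5, which ranked 2 and 4 among the genes most like Cr2. Of 12 marginal zone genes, 9 were at least 1.5-fold higher with Cr2 in PEP-WT, led by Nebl with a log2 ratio of 1.68, and 4 were higher in PEP-619WW, led by Ahr with 1.19, with Asb2 lower. Of the Notch targets, which include the members Hes1 and Dtx1, 4 of 5 were higher in PEP-WT and 2 of 4 in PEP-619WW. Those that are not members were Hes5 and Myc in PEP-WT and Ccnd1 in PEP-619WW. Of the glycosylation and cleavage, nuclear complex, and inhibitor and turnover genes 0 were higher or lower in PEP-WT. In PEP-619WW 1 of 13 nuclear complex genes, Kat2a, was higher and 1 of 8 inhibitor and turnover genes, Mib2, was lower. In the B1 or age-associated list 4 of 7 were lower in PEP-WT and 5 of 7 in PEP-619WW, against 5.59% and 9.49% of all genes.

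Across the sorted cells the 7 genes divided by where they were highest, among 5 gates with at least 100 barcodes in both libraries (B, plasma, T, monocyte or macrophage and neutrophil). Cr2, Dtx1 and Il9r, 3 of 7, were highest in the B gate in both libraries. The share of all genes highest in that gate was not computed, so this count is a description. Cr2 was at 1.35 CPM in T cells of PEP-WT and 0.396 CPM in those of PEP-619WW, and at 21.7 CPM and 6.89 CPM in plasma cells. Dtx1 was also present in T cells, at 34.8 CPM and 20.8 CPM. In plasma cells Dtx1 stood at 15.1 CPM in PEP-WT and 6.06 CPM in PEP-619WW, Il9r at 6.34 CPM and 2.63 CPM, and Hes1 at 10.6 CPM and 5.34 CPM. S1pr3 stood there at 1.87 CPM and 0.518 CPM, from 47 and 13 UMIs, Cd1d1 at 15.7 CPM and 13.2 CPM, and Notch2 at 14.6 CPM and 17.4 CPM. Lower levels in PEP-619WW were thus not confined to the B gate.

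Hes1 and S1pr3 were highest in B barcodes in PEP-WT and in monocytes or macrophages in PEP-619WW, where S1pr3 rests on 4 UMIs and the intervals of both genes overlap those of the B gate. Hes1 in monocytes or macrophages stood at 18.3 CPM and 20.3 CPM, close in both libraries. Notch2 was highest in neutrophils, at 84.3 CPM and 104 CPM, within counting error of its level in B cells, and Cd1d1 in monocytes or macrophages, at 45.4 CPM and 37.3 CPM, where its intervals also overlap those of the B gate. In monocytes or macrophages Notch2 stood at 71.7 CPM and 92.4 CPM, and in T cells at 18.6 CPM and 22.9 CPM. None of its differences between the libraries in these gates reached 1.5-fold, and its intervals overlapped in neutrophils and T cells.

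**Figure D5:**
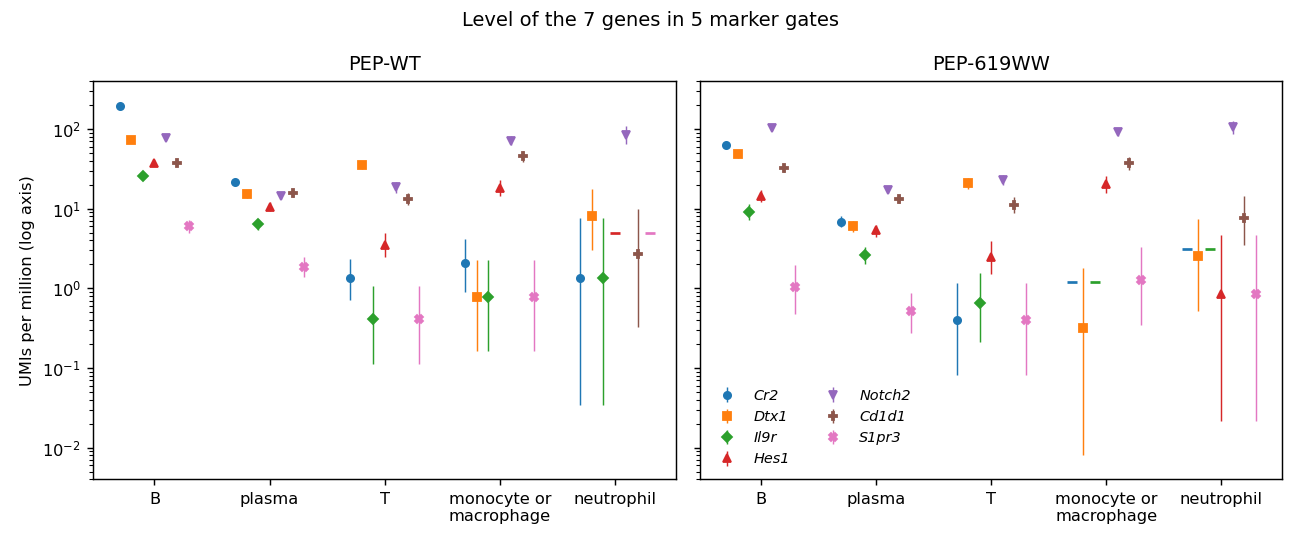
Level of the 7 genes in UMIs per 1000000, on a log axis, in 5 marker gates of PEP-WT and PEP-619WW, with 95% Poisson intervals and a dash at the upper limit where no UMI was counted. Cr2 lies at 193 and 63.1 in B barcodes and below 2 in T cells, and Notch2 is at 84.3 and 104 in neutrophils.

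Run 2 of PEP-619WW held 500 B barcodes, 4.53% of its barcodes, with a median of 1867 UMIs. Cr2 stood there at 89.8 CPM (95% interval 75.6 to 106), Notch2 at 82.2 CPM, Dtx1 at 21.7 CPM, Cd1d1 at 17.8 CPM, Hes1 and Il9r at 11.5 CPM each, and S1pr3 at 1 UMI. With Cr2 in 109 of them, the ratio with Cr2 to without was 1.12 for Dtx1 (95% interval 0.460 to 2.48), 1.20 for Il9r, 0.785 for Notch2, 0.518 for Cd1d1 and 0.183 for Hes1 from 1 and 17 UMIs, and the intervals of all members measured included 1. Fcer2a, not a member, was 1.28-fold higher with Cr2 there (95% interval 1.01 to 1.62). No genotype ratio could be made in run 2, with 2 PEP-WT barcodes.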

How the data were processed

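By the study's methods, live CD45+ splenocytes were sequenced with the 10x Genomics 3′ kit. The deposited files hold UMI counts per gene and barcode that the authors made with Cell Ranger 6.0.0 on mm10, per the submitters' processing notes. The study's methods name another version. Run 1 held 77916082 UMIs in PEP-WT and 56745578 in PEP-619WW. Groups came from the genotype label. Counts were summed per library and gate, divided by the total of the gate and given per 1000000 (CPM), with no pseudocount. Each pair of libraries shared 19 to 49 barcode sequences, which were kept, and doublets were not called, so barcodes with UMIs of other cells were left out as an alternative. The named genes were the 7 members, list genes with the largest ratio among those with 30 UMIs or more, and the 10 genes most like Cr2 with the 5 least like it. The members and lists were chosen with earlier results of these data known. The count code was tested on simulated data. Intervals came from scipy 1.17.1, run under Python 3.11.15 with numpy 2.4.6 and pandas 2.3.3, and plots from matplotlib 3.10.9.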

Additional observations from a re-analysis of the deposited data

Results flagged for a closer look

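Some ratios pointed opposite ways in PEP-WT and PEP-619WW, or with and without Cr2, and these differences were not tested. Cd1d1 with fewer than 2 Ighd UMIs over 2 or more had a log2 ratio of 0.43 in PEP-WT and -0.11 in PEP-619WW, and Dtx1 had 0.09 and -0.03. Notch2 with Cr2 over without had 0.04 in PEP-WT and -0.23 in PEP-619WW. The genotype ratio of Cd1d1 was 0.20 without Cr2 and -0.40 with it.

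UMIs of the 7 genes were also counted outside the B gate in run 2, above the 3 UMIs that a count of 0 allows. Notch2 had 2274 UMIs in PEP-WT and 2927 in PEP-619WW, Cd1d1 182 and 489, Hes1 85 and 213, S1pr3 80 and 146, Cr2 15 and 51, Dtx1 4 and 111, and Il9r 4 and 75. Run 2 of PEP-WT had 53.1% of barcodes in the monocyte or macrophage gate and that of PEP-619WW 38.4%.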

How the results depend on the processing

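Of 162 values under other settings, 138 stayed within their counting interval or, for counts, moved by no more than 1.5 times, and 24 moved by more. Of the ratios past 1.5-fold 0 reversed. Counts and ratios short of 1.5-fold were not scored for reversal, and Notch2 with Cr2 in PEP-WT went from a log2 ratio of 0.04 to as low as -0.01. The log2 ratio of Cr2, -1.61, was -1.83 with no Mzb1 limit, -1.48 with Mzb1 below 2, -1.76 after thinning and -1.40 as UMIs per barcode. Thinning left 3 genes lower in all B barcodes in place of 5, and thinning or Mzb1 below 2 left 3 in place of 5 with fewer than 2 Ighd UMIs. The count of genes higher with Cr2 in both genotypes, 3, was 1 with Mzb1 below 2, 1 after thinning and 0 at 2-fold, and of the other 10 settings 5 gave 2, among them totals without immunoglobulin genes, a limit on the mitochondrial share and leaving out barcodes with UMIs of other cells. The causes were not tested. For the other 6 genes, the genotype log2 ratios over settings ran from -1.01 to -0.40 for Dtx1, -1.83 to -1.06 for Hes1, -1.82 to -1.27 for Il9r, -2.66 to -1.26 for S1pr3, -0.48 to -0.03 for Cd1d1 and 0.17 to 0.64 for Notch2. Leaving out barcodes with UMIs of other cells, Mzb1 below 2 and 2000 or more UMIs in the co-detection with Cr2 were chosen after seeing the data. No paired analysis was possible because each genotype is 1 library in run 1. Run 2 was not run as an alternative for the genotype ratios, since it held 2 PEP-WT B barcodes. Depth limits S1pr3 most, with 9 UMIs in PEP-619WW.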
